A study of Mus musculus with 12 samples.

Results

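Dlx3, Dlx5, Dlx6, Tfap2a, Msx1, Msx2, Gata3, Krt8 and Krt18 are genes of the surface ectoderm and of the neural border, the strip of ectoderm at the edge of the neural plate. They were taken as a list of 9 symbols and looked up in the probe annotation of the array. Of the 9 genes, 8 had a named probe, 12 probes in all among the 46237 on the array. Msx2, a homeobox gene related to Msx1, had none and was not analysed here. A probe entered the tests when its detection p-value was below 0.05 on at least 3 of the 12 arrays. By that filter 9 of the 12 probes and 7 of the genes passed, and these 7 were tested among 11124 genes.

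The RNA came from mouse embryos at stage E7.75, cut into an anterior and a posterior piece of epiblast, the layer of cells that forms the embryo itself. Control embryos were Dkk+/+ and knockout embryos were Dkk-/-, and the sample codes name the gene as Dkk1. Each genotype gave 3 anterior and 3 posterior arrays, which makes 4 groups. The treatment notes speak of more genotypes than the 2 they name, and they do not say which arrays share embryos, litters or pools, so p-values measure the spread between these arrays, which may be technical. Each array measured whole tissue, in which fewer cells of a type and less RNA per cell cannot be told apart.

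DKK1 is a secreted protein that binds the LRP5 and LRP6 co-receptors and blocks Wnt signalling through beta-catenin, and mouse embryos without it fail to form anterior head structures. At the edge of the neural plate, BMP and Wnt signals help to set up surface ectoderm and border identity. DLX, MSX, AP-2 and GATA transcription factors act in that process, and the keratins KRT8 and KRT18 pair into the filaments of simple epithelia. Several of these genes are also active in mouse trophoblast and extraembryonic ectoderm, the tissue next to the epiblast, which is why markers of that tissue are given below beside the values.

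Mean probe intensity ran from 189 on knockout posterior replicate 2 to 693 on control anterior replicate 2, and between 36.2% and 42.3% of probes were detected on an array. The targeted gene did not separate the genotypes. The Dkk1 probe read 6.10, 5.78 and 6.06 in control anterior arrays and 6.0, 6.27 and 6.17 in knockout anterior arrays (log2 normalized intensity, the scale of every level below). The anterior difference was 0.17 (SE 0.17, limma adjusted p = 0.83), and the posterior difference was -0.43 (SE 0.17, adjusted p = 0.44) with the probe undetected on all 3 knockout posterior arrays. The labels do not say where the probe lies relative to the deleted sequence, so it does not check the labels, and "knockout" means arrays labelled so. The neural plate genes Sox2, Lhx5 and Pou3f1 fell in knockout anterior arrays, by 1.44, 1.21 and 1.09 on the log2 scale. In that comparison 3 of the 8 tested genes of their list passed the test, where 56 of 11124 genes or 0.503% passed. The list was chosen with earlier results of these data known, so it does not check the labels either.

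Start-site sequence is shown for Krt8 and Krt18, neighbouring genes whose probes gave the same order of groups, and for Gata3, whose window held the most matches to the 5 motifs searched. Krt8 and Krt18 lie on chromosome 15 with 23873 bases between them. RefSeq start-site windows of 300 bases were matched for 6 of the 9 genes on GRCm38.p6. For Krt8 and Krt18 they ran from 250 bases before the annotated start of the gene to 50 after it. The Gata3 window and both Tfap2a windows lie inside the annotated genes, at internal start sites. The searches covered both strands and used CTTTGAT for TCF/LEF, GGCGCC for SMAD1/5, GCCNNNGGC for AP-2, TAATTG for DLX/MSX and AGATAA for GATA factors. Among 32851 windows of all genes these letters were present in 3.73%, 11.9%, 16.6%, 8% and 11.2%. Capitals mark the matches, which describe the letters and are not binding sites. The Krt8 window is chr15:102004293-102004592 on the minus strand.
Krt8: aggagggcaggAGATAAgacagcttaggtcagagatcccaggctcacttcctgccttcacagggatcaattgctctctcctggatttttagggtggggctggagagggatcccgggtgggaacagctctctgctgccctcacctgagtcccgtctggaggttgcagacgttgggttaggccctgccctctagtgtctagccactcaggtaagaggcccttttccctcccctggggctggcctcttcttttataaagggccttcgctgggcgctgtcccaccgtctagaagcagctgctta
The Krt18 window is chr15:102027966-102028265 on the plus strand.
Krt18: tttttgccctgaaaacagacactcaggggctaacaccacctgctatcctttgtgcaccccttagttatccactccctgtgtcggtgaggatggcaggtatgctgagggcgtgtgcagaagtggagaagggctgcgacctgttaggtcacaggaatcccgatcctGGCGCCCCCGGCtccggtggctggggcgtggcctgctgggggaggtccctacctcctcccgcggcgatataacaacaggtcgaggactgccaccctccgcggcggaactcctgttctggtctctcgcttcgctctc
The Gata3 window is chr2:9878551-9878850 on the minus strand.
Gata3: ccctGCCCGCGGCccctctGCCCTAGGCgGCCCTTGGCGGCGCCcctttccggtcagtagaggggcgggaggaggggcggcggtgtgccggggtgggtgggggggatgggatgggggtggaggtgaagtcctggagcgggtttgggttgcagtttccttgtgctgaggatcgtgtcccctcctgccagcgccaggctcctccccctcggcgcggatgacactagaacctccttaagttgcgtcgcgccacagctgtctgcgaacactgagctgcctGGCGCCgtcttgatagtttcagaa
The Gata3 window held 3 AP-2 matches close together, the last of them next to 1 of its 2 SMAD1/5 matches. The Krt18 window held 1 match to each of those motifs, and these overlap. The Krt8 window held 1 GATA match and no match to the other 4 motifs, so the neighbouring keratin genes shared none of the searched motifs in these windows. The CTTTGAT motif was in none of the 7 windows matched to members.

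Msx1, a homeobox repressor made in BMP-responsive ectoderm and mesoderm, was the member with the clearest regional pattern. Its levels were 10.34, 10.19 and 10.15 in control anterior arrays and 11.14, 11.14 and 10.97 in control posterior arrays. In knockout embryos they were 10.27, 9.99 and 10.36 in anterior arrays and 11.46, 11.59 and 11.38 in posterior arrays. Every posterior array was above every anterior array of its own genotype. Knockout posterior arrays were also all above control posterior arrays, and the anterior groups overlapped.

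Krt8, which encodes the type II keratin of simple epithelium, ran the other way. It read 12.94, 12.82 and 12.86 in control anterior arrays and 12.32, 12.58 and 12.32 in control posterior arrays. Knockout arrays read 12.89, 12.90 and 12.87 in anterior and 12.53, 12.66 and 12.46 in posterior pieces. Anterior arrays were above posterior arrays in both genotypes, and the genotypes overlapped in each region.

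Krt18 encodes the type I partner that pairs with KRT8. Its levels were 11.34, 11.33 and 11.49 in control anterior arrays and 10.93, 10.84 and 10.60 in control posterior arrays. They were 11.52, 11.45 and 11.51 in knockout anterior arrays and 11.01, 11.28 and 11.15 in knockout posterior arrays. The posterior genotypes did not overlap for Krt18, with the knockout arrays higher. Across the 12 arrays the Krt8 and Krt18 levels correlated at Pearson r = 0.89, a description over arrays that share normalization and the split into regions. In deviations from the group means r was 0.31.

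**Figure D1:**
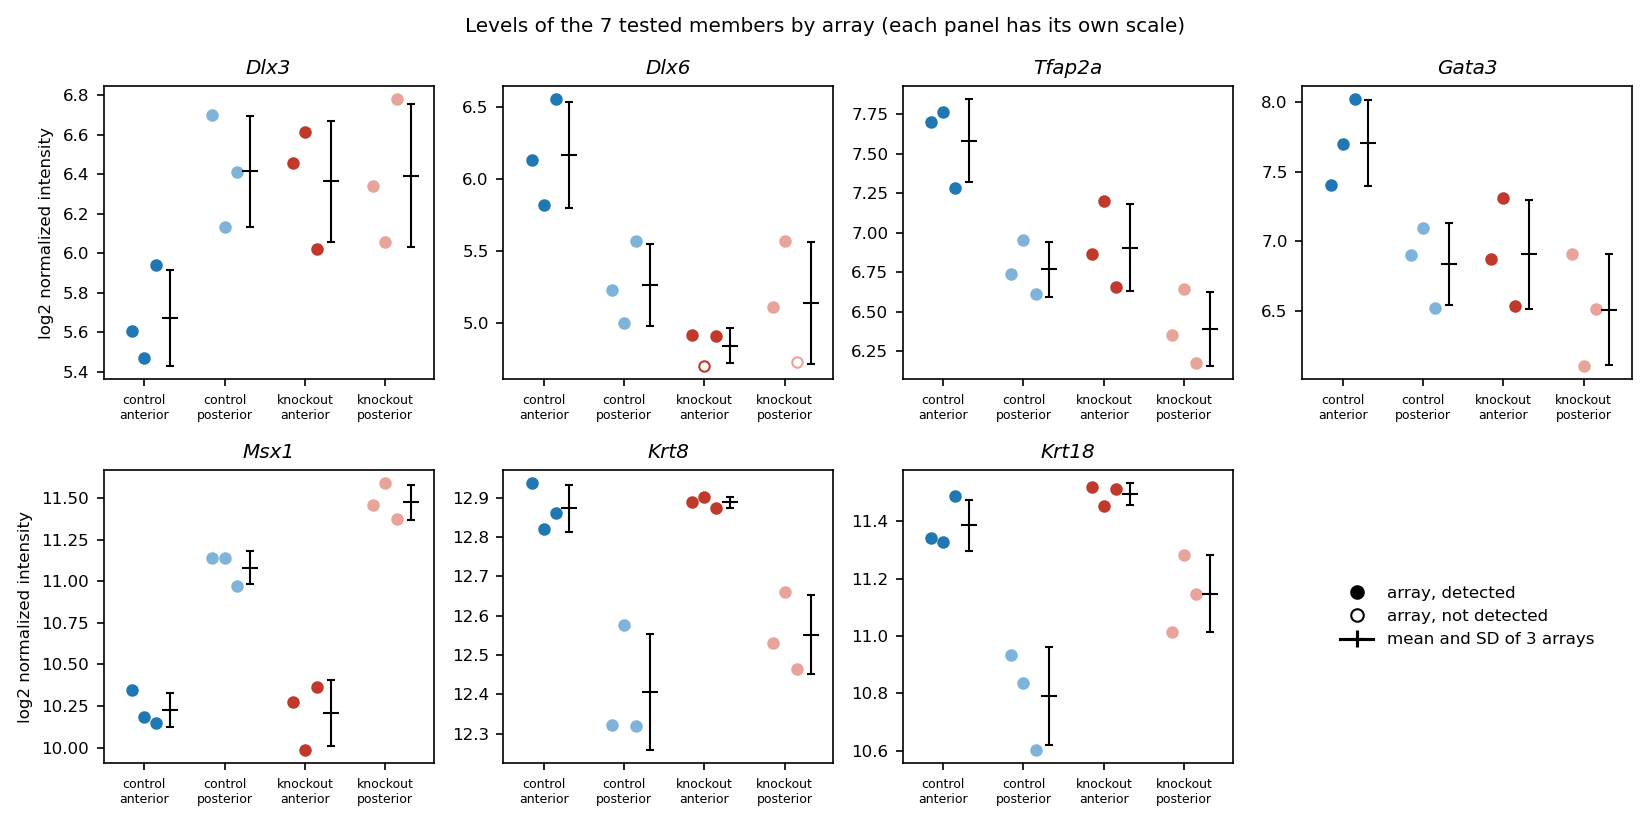
Level of each tested gene (vertical axis, log2 normalized intensity, a separate scale per panel) on each of the 12 arrays by group (horizontal axis), with the mean and SD of 3 arrays. Msx1 is high in both posterior groups, and Krt8 and Krt18 are high in both anterior groups. Control anterior arrays stand apart from the other groups for Dlx3 (low), Dlx6, Tfap2a and Gata3 (high), by small margins except for Dlx6.

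The remaining tested members shared another outline, in which control anterior arrays stood apart from the other 3 groups. The margin was small for Gata3, Tfap2a and Dlx3, and the share of all genes with such an outline was not counted. Dlx6, a homeobox gene of the branchial arches and border ectoderm, read 6.13, 5.82 and 6.55 in control anterior arrays. It read 5.23, 5.0 and 5.57 in control posterior, 4.92, 4.70 and 4.91 in knockout anterior and 5.11, 5.57 and 4.73 in knockout posterior arrays. It was detected on 3, 3, 2 and 2 arrays of those groups. The control anterior arrays were all above the other 9 arrays. Among those, control posterior arrays were above knockout anterior arrays, and knockout posterior arrays overlapped both.

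Gata3, a zinc finger factor of surface ectoderm and also of trophoblast, read 7.41, 7.70 and 8.02 in control anterior arrays. Control posterior arrays read 6.90, 7.09 and 6.52, knockout anterior arrays 6.88, 7.31 and 6.53, and knockout posterior arrays 6.91, 6.11 and 6.52. The control anterior arrays were again above all others, by a small margin over knockout anterior replicate 2.

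Tfap2a encodes AP-2alpha, a factor needed for surface ectoderm and neural crest. Its brightest probe read 7.70, 7.76 and 7.28 in control anterior arrays and 6.74, 6.96 and 6.62 in control posterior arrays. It read 6.87, 7.20 and 6.65 in knockout anterior arrays and 6.35, 6.64 and 6.18 in knockout posterior arrays. Control anterior arrays were above all others, by a small margin over knockout anterior replicate 2. Knockout anterior arrays were in turn above knockout posterior arrays, by a still smaller margin. The lowest mean, 6.39 ± 0.23 (SD, n = 3), was in knockout posterior arrays.

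Dlx3, a homeobox gene of surface ectoderm, placodes and placenta, had the opposite outline. It read 5.60, 5.47 and 5.94 in control anterior arrays, the lowest of the 12. It read 6.70, 6.13 and 6.41 in control posterior, 6.46, 6.61 and 6.02 in knockout anterior and 6.34, 6.06 and 6.78 in knockout posterior arrays. Those 3 groups overlapped.

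Dlx5, the neighbour of Dlx6 on chromosome 6 with 9830 bases between them, was not well above background. Its 2 probes were detected on 0 of 12 arrays, with raw intensities from 74.9 to 114 and detection p-values no lower than 0.0855. The annotation places long noncoding RNAs named Dlx6os1 and Dlx6os2 over Dlx6. The sources used here do not give the strand that the Dlx6 probe reads, so these transcripts could not be told apart from Dlx6.

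The 4 probes of Tfap2a did not give 1 pattern. Probe ILMN_2764846, described above, was detected on all 12 arrays, ILMN_2913031 on 11, ILMN_2726449 on 4 and ILMN_1222212 on 0. Between control regions the brightest probe fell by 0.81 towards the posterior, while ILMN_2726449 gave -0.44 (SE 0.18) and ILMN_2913031 gave -0.05 (SE 0.24). Between genotypes in anterior arrays all 3 testable probes were lower in the knockout, at -0.68 (SE 0.19), -0.35 (SE 0.18) and -0.50 (SE 0.24), and none of them passed the test. The regional call for Tfap2a therefore rested on 1 probe, and the mean of its detected probes gave -0.43 (limma adjusted p = 0.21).

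**Figure D2:**
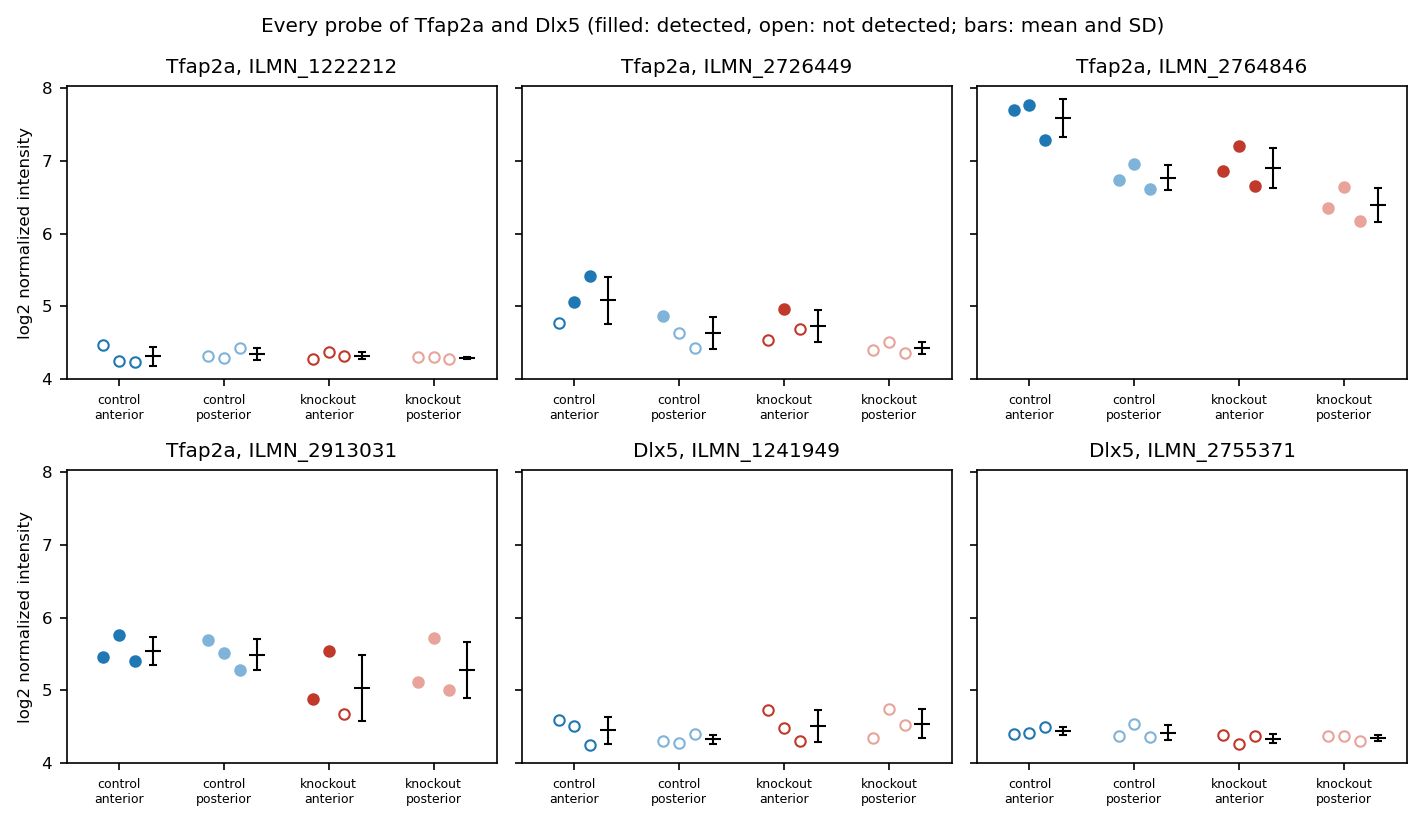
Level of every Tfap2a and Dlx5 probe (vertical axis, log2 normalized intensity) on each array by group (horizontal axis), filled where detected, with mean and SD of 3 arrays. Probe ILMN_2764846 of Tfap2a is high in control anterior arrays, ILMN_2913031 is about level between the control regions, and both Dlx5 probes are undetected on all 12 arrays.

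The comparison of posterior with anterior epiblast in control embryos asked which members differ along the axis when DKK1 is present. In it 5 of the 7 tested members passed the test, 1 higher and 4 lower in posterior arrays. In the same comparison 554 of 11124 genes passed, which is 4.98%. Msx1 rose 1.81-fold towards the posterior, a log2 change of 0.86 (SE 0.13, limma adjusted p = 0.0017). Krt18 fell by 0.60 (SE 0.13, adjusted p = 0.015), Tfap2a by 0.81 (SE 0.19, adjusted p = 0.021), Dlx6 by 0.90 (SE 0.23, adjusted p = 0.040) and Krt8 by 0.47 (SE 0.12, adjusted p = 0.040). Gata3 at -0.87 (SE 0.25, adjusted p = 0.066) and Dlx3 at 0.74 (SE 0.22, adjusted p = 0.077) did not pass. The values of the control regions did not overlap for 7 of 7 members, against 26.7% of all genes. The median change of the members was -0.60, against 0.01 over all genes tested.

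Several of these regional calls were close to the threshold. The Msx1 call held without each array in turn. Krt18 lost its call without control anterior replicate 3 (adjusted p = 0.063) or control posterior replicate 3 (0.076). Tfap2a lost it without control anterior replicate 1 or 2 or control posterior replicate 1 or 3, at adjusted p from 0.076 to 0.099. Dlx6 lost it without control anterior replicate 1 or 3, control posterior replicate 1 or 2, knockout anterior replicate 1 or 3, or knockout posterior replicate 1, at 0.052 to 0.18. Krt8 lost it without any control anterior replicate, control posterior replicate 1 or 3, knockout anterior replicate 1 or 3, or knockout posterior replicate 3, at 0.055 to 0.15. Gata3 passed in 9 of 24 alternatives, among them those without knockout anterior replicate 2 (0.047) or knockout posterior replicate 2 (0.040), with an offset of 50 (0.029) and in the authors' normalized values (0.028). The authors' values gave smaller changes for dim genes, at -0.36 for Dlx6, -0.51 for Tfap2a, -0.55 for Gata3 and 0.33 for Dlx3. Scaling arrays to a common median, in place of quantile normalization, ended all 5 calls with no change of sign. The Dlx6 call also ended without background correction (adjusted p = 0.055) or a filter (0.076), and the Krt8 call ended when control arrays alone were fitted (0.064).

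In knockout embryos the same regional comparison called Msx1 alone, 1 of 7 members, where 876 genes or 7.87% passed. Msx1 was 2.40-fold higher in posterior arrays, a log2 change of 1.27 (SE 0.13, adjusted p = 6.1e-05). Krt8 at -0.34 (SE 0.12, adjusted p = 0.10), Krt18 at -0.35 (SE 0.13, adjusted p = 0.12) and Tfap2a at -0.51 (SE 0.19, adjusted p = 0.11) were lower in every posterior array without passing. Gata3 was at -0.40 (adjusted p = 0.37), Dlx6 at 0.30 (adjusted p = 0.48) and Dlx3 at 0.03 (adjusted p = 0.96). The regions did not overlap for 4 of the 7, against 26.1% of all genes. Median scaling, under which the all-gene median was -0.52 here, ended the Msx1 call (0.61, adjusted p = 0.40).

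**Figure D3:**
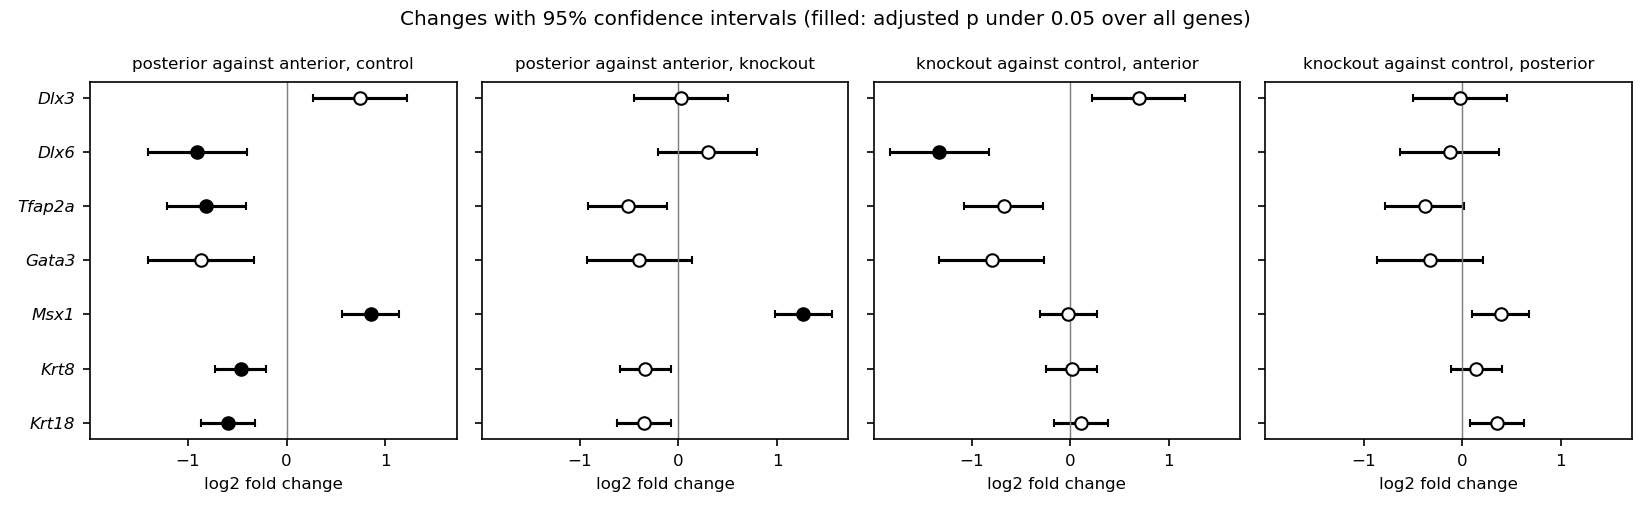
Log2 fold change (horizontal axis) of each tested gene with its 95% confidence interval in the 4 comparisons between groups, filled where the limma adjusted p over 11124 genes was below 0.05. In control embryos 5 members are filled for region and in knockout embryos Msx1 alone, and Dlx6 is the member filled for genotype, in anterior arrays.

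The comparison of knockout with control anterior epiblast asked what the loss of DKK1 changes where the head forms. Dlx6 fell 2.51-fold, a log2 change of -1.33 (SE 0.23, limma adjusted p = 0.023), and was the 1 member of 7 to pass, where 56 genes or 0.503% passed. The size depended on the treatment of background, with -0.76 at an offset of 50 (adjusted p = 0.017), -0.49 in the authors' normalized values (0.035) and -0.44 without background correction (0.045). It ranked 33 among all genes by p. Knockout anterior arrays were the lowest group for Dlx6, near background with 2 of 3 arrays detected. Gata3 at -0.80 (SE 0.25, adjusted p = 0.29), Tfap2a at -0.68 (SE 0.19, adjusted p = 0.20) and Dlx3 at 0.69 (SE 0.22, adjusted p = 0.31) did not pass. Msx1 at -0.02, Krt8 at 0.02 and Krt18 at 0.11 had intervals that lay between -0.31 and 0.38. The groups did not overlap for 4 of the 7 members, against 14.1% of all genes. This comparison uses the same 3 control anterior arrays as the regional comparison in control embryos, so the values of Dlx6, Gata3, Tfap2a and Dlx3 in these comparisons are not independent.

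The Dlx6 call depended on single arrays. It was lost without control anterior replicate 1 (-1.35, adjusted p = 0.090) or 3 (-1.14, 0.095), and without knockout anterior replicate 1 (-1.37, 0.060), 2 (-1.26, 0.098) or 3 (-1.36, 0.062). Median scaling also ended it (-1.50, adjusted p = 0.57), as did testing all named probes without a filter (-1.33, adjusted p = 0.060). Weighting the arrays by their estimated quality called 4 members, Dlx3 at 0.76, Dlx6, Tfap2a at -0.92 and Gata3 at -0.91, but called 542 genes in all.

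In posterior epiblast 0 of 7 members passed between genotypes by limma, and 0 of 11124 genes (0%) did. At an unadjusted p under 0.05 there were 2 members and 1104 genes. Those members were Msx1, at 0.39 (SE 0.13, adjusted p = 0.39), and Krt18, at 0.36 (SE 0.13, adjusted p = 0.40), both higher in knockout arrays and both with groups that did not overlap, as for 15.6% of all genes. Tfap2a was at -0.38 (SE 0.19), Gata3 at -0.33 (SE 0.25), Krt8 at 0.14 (SE 0.12), Dlx6 at -0.13 (SE 0.23) and Dlx3 at -0.02 (SE 0.22). Msx1, Krt18 and Krt8 changed sign under median scaling, and the all-gene median itself moved by -0.68 there, so these values are directions relative to the other genes, and all 3 genes stayed above that median under both scalings.

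Averaged over both regions, no member passed for genotype by limma, where 57 genes or 0.512% passed. At an unadjusted p under 0.05 there were 4 of 7 members and 1377 of 11124 genes. Dlx6 was at -0.73 (SE 0.16, adjusted p = 0.081), Tfap2a at -0.53 (SE 0.13, adjusted p = 0.10) and Gata3 at -0.56 (SE 0.18, adjusted p = 0.19). Krt18, the other member of those 4, was higher in the knockout, at 0.23 (SE 0.09, adjusted p = 0.30). Dlx6 passed without knockout posterior replicate 2, the dimmest array (-0.84, adjusted p = 0.039). The test of whether the regional difference itself changed with genotype passed for no member and for 1 gene of 11124, or 0.00899%. Its estimate was 1.20 for Dlx6 (SE 0.33, unadjusted p = 0.0028, limma adjusted p = 0.52), -0.71 for Dlx3 (SE 0.31, adjusted p = 0.77) and 0.41 for Msx1 (SE 0.19, adjusted p = 0.80). For 3 members and 685 of 11124 genes the unadjusted p was under 0.05. The loss of regional calls in knockout embryos was therefore not shown to be a difference between genotypes.

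Some genes of the extraembryonic ectoderm list were high in the same control anterior arrays as Dlx6, Gata3 and Tfap2a, and others of that list were not. Elf5, a trophoblast transcription factor, read 7.25, 7.33 and 6.85 in control anterior arrays and was undetected on all control posterior arrays, at least 4.98-fold lower there (limma adjusted p = 0.00090). It was detected on 1 array of each knockout group, so it passed the filter only through control anterior arrays. Its call between control regions therefore supports nothing further. Wnt7b read 7.22, 7.48 and 6.53 in control anterior arrays and 4.50, 4.74 and 4.92 in control posterior arrays. Rhox9, a homeobox gene of placenta and germ cells, was detected on the 3 control anterior arrays and on 0 of the other 9, so it entered the tests through that group alone and its call there supports nothing further. None of the other genes among the 13 tested passed between anterior genotypes by limma, and with Rhox9 included 8 had an unadjusted p under 0.05. Of all 11124 genes 1009 did. In knockout anterior arrays Elf5 read 4.69, 4.32 and 6.40 and Wnt7b read 4.49, 4.78 and 6.35. Both were detected on replicate 3 alone in that group, where Gata3 read 6.53, Tfap2a 6.65 and Dlx6 4.91. They were also detected on knockout posterior replicate 2, at 5.31 for Elf5 and 5.46 for Wnt7b. Gata3 read 6.11, Tfap2a 6.64 and Dlx6 5.57 on that array. Between control regions 5 genes of the list fell and 1, Cdx2, a gene also of posterior epiblast, rose by 3.27. Over all genes 4.98% passed there, and those that fell include Elf5 and Rhox9, with the limit given above. Between knockout regions 3 rose and 1 fell, where 7.87% of all genes passed. Cdx2 was at 2.80, Sox21 at -1.65 and Hand1 at 1.28, and Plac1, a placental gene, rose by 0.81. The log2 of the summed intensity of the list, Cdx2 included, was 11.38 to 11.55 in control anterior and 12.84 to 12.96 in control posterior arrays. It was 11.15 to 11.55 in knockout anterior and 13.05 to 13.16 in knockout posterior arrays. Cdx2 alone had means of 12.60 in control posterior and 12.83 in knockout posterior arrays. The posterior sums were therefore mostly Cdx2 and do not describe the other genes of the list. The part of this tissue in the levels of Dlx6, Gata3, Tfap2a, Krt8 and Krt18 was not tested.

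**Figure D4:**
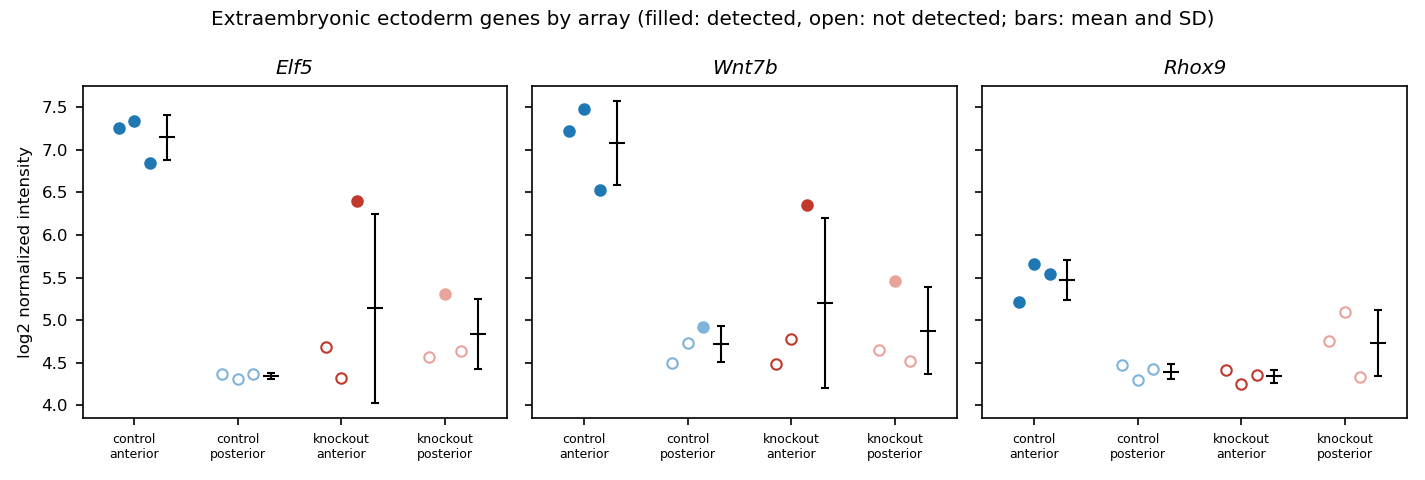
Level of the extraembryonic ectoderm genes Elf5, Wnt7b and Rhox9 (vertical axis, log2 normalized intensity) on each array by group (horizontal axis), filled where detected, with mean and SD of 3 arrays. All 3 genes are detected on every control anterior array, and in the knockout anterior group Elf5 and Wnt7b are detected on replicate 3.

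Markers of other neighbouring tissues were examined in the same way. All 14 visceral endoderm genes were detected on every array, although the tissue is labelled epiblast. The log2 of their summed intensity was 15.76 to 15.88 in control anterior and 15.71 to 15.78 in control posterior arrays. It was 15.77 to 15.89 in knockout anterior and 15.62 to 15.71 in knockout posterior arrays. That sum is weighted to the brightest genes, such as Apoa1 and Ttr, and does not describe the dimmer ones. Of the 14 genes, Hnf4a fell by 0.79 towards the posterior in knockout embryos, and the list had no other limma call. At most 5 of its genes had an unadjusted p under 0.05 in a comparison. Of 8 blood and endothelium genes none passed in any comparison by limma, with at most 2 at an unadjusted p under 0.05 in a comparison. Of 10 tested amnion and extraembryonic mesoderm genes, Tbx4 and Bmp4 rose towards the posterior in both genotypes and Hand1 in the knockout. Tbx4 rose by 3.03 in control embryos, and in knockout embryos, where it was undetected on the anterior arrays, it was at least 14.7-fold higher in posterior arrays.

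Other genes of surface ectoderm, placodes and epithelium were few in number among the calls. Of 22 listed, 14 were tested, and none passed between genotypes in either region by limma, with 4 at an unadjusted p under 0.05 in each. Among all 11124 genes 1009 in anterior and 1104 in posterior arrays met that cut-off. Between control regions 2 were higher and 1 was lower in posterior arrays, where 4.98% of all genes passed. Wnt6, a ligand made in surface ectoderm, rose by 1.04 (SE 0.18, adjusted p = 0.0039), and Grhl3, a regulator of neural tube closure and epidermis, rose by 0.81 (SE 0.16, adjusted p = 0.012). Eya1, a placode gene, was undetected on the posterior arrays and at least 1.54-fold lower. Outside control anterior arrays it was detected on 2 knockout anterior arrays alone, so it passed the filter only through the group where it was high. Its call between control regions therefore supports nothing further. In knockout embryos 3 were higher and 2 were lower, where 7.87% of all genes passed. Among them were Wnt6 at 1.38, Foxi2 at -1.36 and Hand1 at 1.28. Trp63, Krt5 and Krt14, which mark stratifying epidermis, did not pass the detection filter, and neither did Tfap2b, Dlx1, Dlx2 or Dlx4. The list's median change was -0.15 between genotypes in anterior arrays and -0.12 between control regions.

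Among neural border and neural crest genes 7 of 16 were tested. Twist1, a mesenchyme and crest factor, rose by 1.19 (SE 0.16, adjusted p = 0.0065) and Gbx2, a posterior neural and border gene, by 1.02 (SE 0.18, adjusted p = 0.023) in knockout anterior arrays. None of the 7 passed in the other direction there. Between control regions Gbx2 rose by 2.37 towards the posterior while Sox9 fell by 1.22 and Snai2 by 1.19. In knockout embryos 2 rose and 2 fell, where 7.87% of all genes passed, with Gbx2 at 1.27, Snai2 at -1.13 and Ets1 at 0.73.

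Of 18 BMP ligands, inhibitors and targets 13 were tested, and none passed between genotypes by limma. At an unadjusted p under 0.05 there were 4 in anterior and 2 in posterior arrays. Over all 11124 genes those counts were 1009 and 1104. Bmp4, the ligand that acts on the border, rose by 0.98 (SE 0.13, adjusted p = 0.00030) towards the posterior in control and by 1.01 in knockout embryos. Id2 and Id1, targets of BMP signalling, fell by 0.90 and 0.58 in control posterior arrays. In knockout posterior arrays Id2 fell by 0.73 and Bmp5 by 0.84. Id1 did not pass between knockout regions, with means of 10.81 in anterior and 10.82 in posterior arrays.

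The genes with levels most like each member over the 12 arrays are given as a description, since all share arrays and groups. For Msx1 they were Hoxc9 (Pearson r = 0.98), Spin2c and Dennd2c. For Krt8 they were Tbc1d1 (r = 0.96), Tgfbi and Il20ra, and for Krt18 Kcnh2 (r = 0.95), 1110008B24Rik and Gpc4. Dlx6 was most like Pdcd4 (r = 0.87), Rhox9 and Selenow. Rhox9 entered the tests through control anterior arrays alone, where Dlx6 was also high, so its likeness supports nothing further. Gata3 was most like BC046418 (r = 0.97), Trib3 and Ptprd, and Tfap2a like St6galnac2 (r = 0.94), Frmd5 and Tle1. Dlx3 was most like Aplnr (r = 0.92), 2810043G13Rik and C1ql2.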

How the data were processed

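Biotin-labelled total RNA was hybridised to Illumina bead arrays, 12 arrays in 4 groups of 3. The deposited raw table holds probe intensity per array, not background subtracted, exported with GenomeStudio per the submitters' processing notes. The same deposited table holds a detection p-value per probe and array. The authors' normalized values, deposited on a log2 scale, were used as an alternative; the sources used here do not give their normalization, the software version, the array model or the scanner.

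The neqc function of limma 3.58.1 (R 4.3.3) corrected the intensities by normexp, added an offset of 16, took quantile normalization between arrays and then log2. A gene was represented by its brightest probe among those detected on 3 or more arrays; 15924 named probes passed. One linear model with 4 groups gave 6 contrasts, with Benjamini-Hochberg adjustment over 11124 genes and a threshold of 0.05, and was tested on simulated data. Folds written "at least" set the bright group's mean against, per array, the lowest signal among detected probes or the dim probe's own where higher. The number of arrays limits the precision. The members and the 8 gene lists were chosen with earlier results of these data known. From each list up to 3 genes with the largest change past the threshold in a comparison were named, and Plac1 was named in addition. Lists share some genes. Probe names came from the platform annotation, which can be old, and places and start-site windows from RefSeq. Alternatives covered background, offset, scaling, filter, probe choice, variance model, array weights, samples in the fit, the replicate number and each array left out.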

Additional observations from a re-analysis of the deposited data

How the results depend on the processing

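Over 24 alternatives each called member kept its sign. The call was kept in 23 for Msx1 in each genotype, 19 for Krt18, 17 for Tfap2a, 13 for Dlx6 and 12 for Krt8 between control regions, and in 16 for Dlx6 between anterior genotypes; the causes were not tested. Members called between anterior genotypes were 1 in the reported setting, 0 under median scaling, under median scaling over probes detected on all arrays (chosen after seeing the data) and without a filter, 4 with array weights, 2 with a replicate block, and 0 to 1 leaving out 1 array. Averaged over regions they were 0, with 3 under array weights, 1 under the replicate block and 0 to 1 leaving out 1 array. Between control regions they were 5, with 0 under median scaling and 3 under the replicate block. Detected-probe scaling called 2, Msx1 and Gata3, and Gata3 was not a call of the reported setting. Without background correction 5 were called, with Gata3 in place of Dlx6. The count was 4 without a filter or with the mean of probes. It was 6 with an offset of 50, in the authors' values, with trended robust variances and with control arrays alone. Array weights called 7, and leaving out 1 array called 2 to 6. Members called between knockout regions were 1, and 0 under median scaling. The count there was 3 without background correction and in the authors' values, and 2 with trended robust variances.

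These signs turned. Anterior Msx1 was 0.05 under detected-probe scaling and 0.081 with array weights, and Krt8 and Krt18 were -0.13 and -0.10 under median scaling. Posterior Dlx3 was 0.24 and Dlx6 0.48 under detected-probe scaling, and Dlx3 was 0.094 with array weights. Under median scaling posterior Msx1, Krt8 and Krt18 were -0.42, -0.55 and -0.47, Dlx3 between knockout regions was -0.39 the Msx1 interaction was -0.16 and Krt18 averaged over regions was -0.29. Median scaling moved the median of all genes by -0.22, -0.68, -0.09 and -0.52 in the anterior, posterior, control and knockout comparisons. Leaving out 1 array gave anterior Msx1 from -0.097 to 0.091 and Krt8 from -0.01 to 0.048, posterior Dlx3 from -0.215 to 0.145 and Dlx6 from -0.344 to 0.078, and Dlx3 between knockout regions from -0.165 to 0.195.

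Deviations of same-numbered arrays from their group means correlated between -0.11 and 0.22, and not every pair was over 0.1. Between the regions of control embryos r was 0.055, 0.21 and 0.22, and between those of knockout embryos -0.03, -0.11 and 0.05. The numbers were not used to pair arrays in the reported setting, and whether such arrays share embryos is not known. Xist, an RNA made in female cells, was detected on 2 of 3 arrays of each control region. Its control levels ran from 4.36 to 9.47 (anterior) and from 4.45 to 9.20 (posterior). Knockout arrays all detected it, at 9.06 to 10.22 (anterior) and 9.16 to 10.02 (posterior). How far embryo sex differed between the groups was not tested. The replicate block called Tfap2a between anterior genotypes (-0.68, adjusted p = 0.042) and dropped Krt8 and Krt18 between control regions. Genes near background, such as Dlx6 and Dlx5, have compressed changes at this signal.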
